A study of Mus musculus with 12 samples.

Results

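The translation initiation and elongation factors were taken as all Argonaute (Ago) peaks whose gene symbol begins with Eif or Eef followed by a digit, in every annotation class. This gave 780 of the 106382 peaks in the deposited table, in 62 of its 12102 gene names, including 3 pseudogenes. In HITS-CLIP, RNA is crosslinked to protein by ultraviolet light, precipitated with an antibody and sequenced, so that a peak marks RNA held by Ago with its microRNA. The material was fetal liver of C57BL/6J mouse embryos, wild type (WT) or homozygous for loss of the miR-144/451 locus (KO). Each genotype was precipitated with an Ago antibody (WT libraries 1, 9 and 10; KO libraries 3, 12 and 13) or with control IgG (WT libraries 2, 6 and 11; KO libraries 4, 8 and 14), 3 libraries per group. The design text speaks of 3 livers per genotype, but the labels do not tie single libraries to animals, so p-values reflect only the variation among libraries and may be partly technical.

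Initiation begins when eIF2 carries the initiator tRNA to the small ribosomal subunit, together with eIF1, eIF1A, eIF3 and eIF5, and the complex is led to the mRNA cap by eIF4F. eIF1, eIF1A and eIF5 govern scanning and the choice of the start codon, eIF5B then joins the large subunit, and eEF1A, eEF2 and eIF5A carry out elongation. Fetal liver is the main site of red cell formation in the embryo, and its erythroid cells make globin at a high rate under the control of HRI (Eif2ak1), a kinase that halts initiation when heme is short. miR-144 and miR-451 are made from a shared transcript in erythroid cells, and miR-451 is cut by Ago2 itself instead of by Dicer.

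Of the mature sequences that KO cells lack, those of miR-451a and miR-144-3p are shown, because the seed, in capitals, is the part that pairs with a target. They are RefSeq sequences of build GRCm38.p6, from the plus strand at chr11:78073186-78073207 for miR-451a and chr11:78073047-78073066 for miR-144-3p, and the capitals mark bases 2 to 8.
mmu-miR-451a: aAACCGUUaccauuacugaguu
mmu-miR-144-3p: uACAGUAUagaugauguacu
A 7-mer site for bases 2 to 8 reads AACGGTT for miR-451a and ATACTGT for miR-144-3p on the strand of the target. The deposited table gives each peak a code for its best match, from an offset or mismatched seed up to a 6-mer, 7-mer and 8-mer. Peak sequences themselves are not analysed here.

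Ago peaks of these genes lay mostly in coding sequence. Coding peaks were 438 of the 780 (56.2%, against 33.7% of all peaks), with 234 in 3′UTRs, 52 in introns, 29 in 5′UTRs, 16 in pseudogenes, 10 upstream and 1 downstream of a gene. The median peak was 31 nt wide and held 12 reads over the 6 Ago libraries. Member peaks took 0.852% ± 0.0149 of all peak reads in WT Ago libraries and 0.881% ± 0.00881 in KO Ago libraries (SD, n = 3 each). IgG libraries had shares of 0.582% ± 0.106 (WT) and 0.559% ± 0.0855 (KO) by the same measure. Eif4g2, Eif5, Eef2, Eif4g1 and Eif3a held the most reads, from 678 WT and 511 KO Ago reads for Eif4g2 to 385 and 388 for Eif3a.

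The libraries held 147969 to 452157 reads in peaks with the Ago antibody and 24622 to 42916 with IgG. Of 17 erythroid markers, 9 had peaks. The 8 without were the globin names Hba-a1, Hba-a2, Hbb-bt, Hbb-bs, Hbb-b1 and Hbb-b2, with Epb42 and Ahsp, so the erythroid share leaves these out. The 9 took 1.04% to 1.27% of peak reads in WT Ago libraries and 0.701% to 0.907% in KO Ago libraries, without overlap. Hepatocyte markers, 13 of 13 with peaks, took 0.618% to 1.81% in WT and 1.15% to 2.24% in KO Ago libraries. In IgG libraries the erythroid share was 0.729% to 1.01% in WT and 0.736% to 0.849% in KO, with overlap. The part of this shift in the results that follow was not tested. Fewer cells of a type, less RNA per cell and less Ago on that RNA cannot be told apart in shares of Ago reads.

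As a whole, peaks of these factors were called lower in KO about as often as other peaks. Each peak was tested for KO against WT in the Ago libraries by the edgeR quasi-likelihood test, with p-values adjusted over all tested peaks and a threshold of 0.05. The filter on low counts left 19 member peaks in 10 genes, 10 of them coding, 8 in 3′UTRs and 1 in an intron. The other 761 peaks, and all peaks of 52 genes, were too thin to test. By edgeR, 4 of the 19 were lower in KO (21.1%), beside 17.6% of all 2425 tested peaks, and 0 were higher, beside 1.40%. Among the 4, the Eif1b and Eif5 peaks passed the filter through WT libraries alone, so their calls are not independent of the filter. DESeq2 and limma-voom called 0 higher too, and 0 member peaks with an unadjusted p under 0.05 were higher. Without KO library 3, 41 member peaks were tested, with 7 lower and 1 higher. Without KO library 13, 47 were tested, again with 7 lower and 1 higher. Without WT library 10, 47 were tested, with 4 lower and 1 higher. The shares over all peaks in these fits are not given here. The median log2 change of the 19 was -0.33, beside 0.09 for all tested peaks.

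A count over thinner peaks gave similar shares. Of the 225 member peaks with at least 20 Ago reads, 40 (17.8%) had all KO levels below all WT levels, beside 18.2% of all such peaks. The reverse order held for 15 (6.67%), beside 6.56%. Without the filter on low counts, edgeR called 14 of the 780 peaks lower (1.79%, beside 2.54% of all peaks) and 0 higher.

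**Figure D1:**
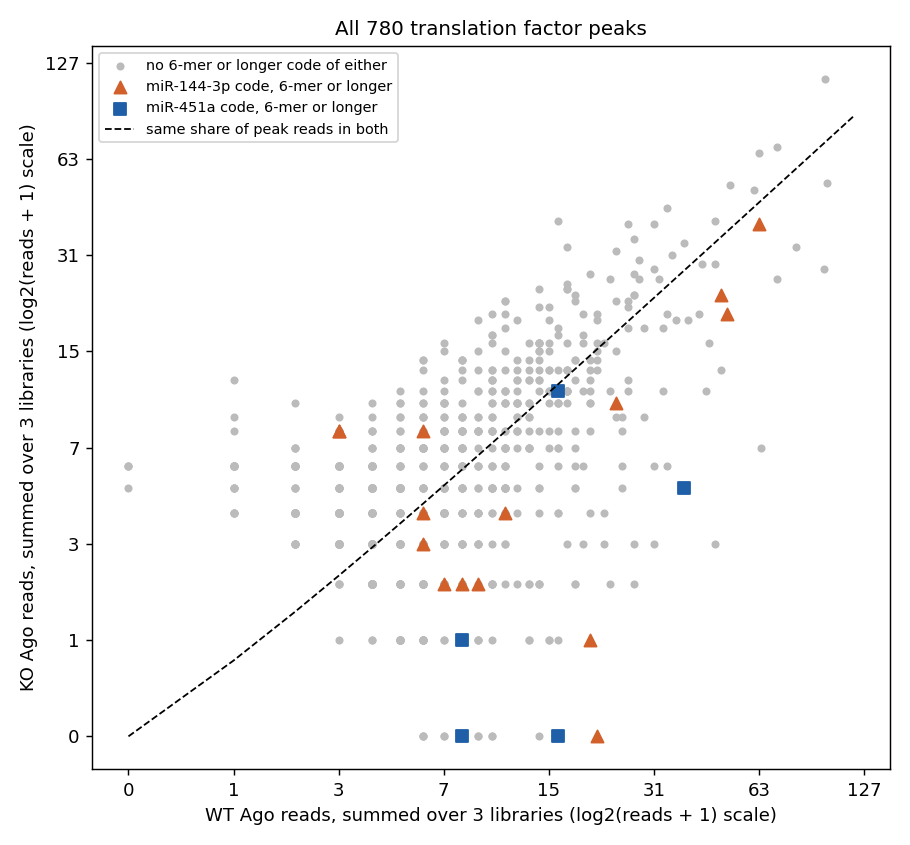
WT Ago reads (x axis) against KO Ago reads (y axis) of all 780 translation factor peaks, each summed over 3 libraries on a log2(reads + 1) scale. Squares mark peaks with a miR-451a code and triangles a miR-144-3p code of 6-mer or longer, and the dashed line is the same share of peak reads in both genotypes. All 5 squares and most triangles lie on or below the line, among many grey peaks that do so without such a code.

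Eif1, Eif1b, Eif1a, Eif1ad, Eif1ax, Eif5 and Eif5b were grouped as factors of start codon selection and the subunit joining that follows it. Of their 34 peaks with at least 20 Ago reads, 18 (52.9%) had all KO levels below all WT levels and 0 the reverse, beside the 18.2% over all genes. They held 9 of the 14 peaks called lower without the filter. Eif5 gave 11 of the 18 peaks, Eif5b 4, Eif1b 2 and Eif1ax 1. The roles were set with earlier results of these data known, so this count describes the peaks and carries no test.

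Eif5, the GTPase activator that makes eIF2 release the initiator tRNA at the start codon, had lower Ago reads along its coding sequence. The gene (chr12:111538101-111546753, plus strand) held 41 peaks with 653 WT and 224 KO Ago reads, a ratio of 2.45 (95% counting interval 2.10 to 2.86). Read ratios here and below are adjusted for depth by the scaling of tested peaks, and their exact intervals cover counting error only. Its summed reads were 997, 904 and 1100 CPM in the WT libraries and 314, 441 and 606 CPM in the KO libraries. CPM, a read count scaled for depth, uses the TMM-scaled reads of tested genes for gene sums, a different scaling from that of the ratios, and those of tested peaks for peaks. Every KO library was below every WT library. The log2 change of the gene sum was -1.15 ± 0.22 (SE, n = 3 each, edgeR adjusted p = 0.00718). Over its 11 alternative settings the adjusted p ranged from 0.00175 to 0.0355.

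The loss in Eif5 was largest in the coding part. Reads over its 15 coding peaks numbered 128, 148 and 84 in WT and 19, 29 and 27 in KO, which is 3116, 2362 and 2761 CPM against 564, 550 and 1027 CPM. The groups did not overlap, the WT to KO ratio was 4.03 (3.14 to 5.24), and 15 of 15 coding peaks had a lower KO mean. The 5′UTR peaks had a ratio of 2.35 (1.39 to 4.14). The 3′UTR peaks had a ratio of 1.64 (1.12 to 2.43), from 84 WT and 43 KO reads, and there KO library 12 lay within the WT range. The 16 peaks classed as intronic, most of them beyond the annotated 3′UTR peaks, had a ratio of 1.49 (1.14 to 1.97). The difference between the coding peaks and the other peaks of the gene was not tested.

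The coding peak of Eif5 that passed the filter lies near the start of the coding sequence, at chr12:111539650-111539683. Its levels were 487, 303 and 329 CPM in WT and 59.4, 114 and 190 CPM in KO. All KO libraries were below all WT libraries. This peak reached the minimum count of the filter in its WT libraries alone, so that order was set by the filter and adds no support. Its call in the filtered test is not independent of the filter either. The log2 change was -1.65 ± 0.45 (SE, n = 3 each, edgeR adjusted p = 0.0144). It passed the filter in 8 of the alternatives, not without KO library 12 or WT library 1 or 9, and the call held in 4 of the 8. The call was lost without KO library 3, with DESeq2, with all 12 libraries in the fit and without the filter on low counts, with adjusted p up to 0.0612. The peak carries none of the 6 microRNAs' seed codes.

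The next coding peak of Eif5, at chr12:111539810-111539856, had the steepest loss in the gene. It held 20, 14 and 13 reads in WT and 1 read in each KO library, a ratio of 13.2 (4.24 to 66.1). It was not in the filtered test. Without the filter its log2 change was -3.70 ± 0.67 (SE, n = 3 each, edgeR adjusted p = 0.000356). Its code is a mismatched miR-451a seed. Without the filter 5 Eif5 peaks were called lower, all coding, and none of the 5 has a 6-mer or longer code of miR-451a or miR-144-3p.

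The miR-144-3p code of Eif5 lies in its 3′UTR, at chr12:111544739-111544764, a 6-mer. Reads there were 10, 30 and 11 in WT and 2, 18 and 0 in KO. KO library 12 was between the WT libraries in CPM, and the other KO libraries were below them. The log2 change was -1.13 ± 0.60 (SE, n = 3 each, edgeR adjusted p = 0.257). Without KO library 12 it was -3.33 with an edgeR adjusted p of 0.00748, so that library decides the call. In the authors' deposited table this peak had a log2 fold change of -2.64 and a false discovery rate of 0.0103.

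Eif5b, the GTPase that joins the ribosomal subunits, had fewer Ago reads in KO near its start and similar numbers further on. The gene (chr1:37998010-38055579, plus strand) held 27 peaks with 277 WT and 131 KO Ago reads. None was deep enough to be tested singly. The 10 peaks nearest the start, all coding, held 39, 89 and 28 reads in WT and 5, 12 and 4 in KO. That is 949, 1421 and 920 CPM against 149, 227 and 152 CPM, with no overlap and a ratio of 6.24 (3.94 to 10.4). The other 17 peaks held 121 WT and 110 KO reads, a ratio of 0.92 (0.71 to 1.21). The split between peaks 10 and 17 was drawn after their values were seen and carries no test. On summed reads the log2 change of Eif5b was -0.66 ± 0.20 (SE, n = 3 each, edgeR adjusted p = 0.0663), which missed the threshold with all KO libraries below all WT libraries.

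These Eif5b peaks hold the deepest miR-451a site of the family. The peak at chr1:38022211-38022252 has an 8-mer code of miR-451a and 8, 23 and 7 WT reads against 2, 3 and 0 KO reads. Its ratio was 6.38 (2.51 to 20.8), and its log2 change without the filter was -2.64 ± 0.65 (SE, n = 3 each, edgeR adjusted p = 0.0127). The peak at chr1:38021682-38021703 has a 6-mer code of miR-144-3p, with 7, 10 and 4 WT reads and 0 KO reads. With 3 reads set over the KO group it was 5.88-fold lower, a value that leaves out counting error. Its counts lay within 10% of those of a peak of Anln in all 12 libraries, so its reads are uncertain, and without it the remaining 9 peaks near the start held 135 WT and 21 KO reads, a ratio of 5.40 (3.39 to 9.01). The peak at chr1:38022284-38022314, with no code of either microRNA, had 7, 15 and 5 WT reads and 0, 1 and 1 KO reads. All of them were called lower without the filter, and in the authors' deposited table their log2 fold changes were -3.23, -4.03 and -3.28.

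**Figure D2:**
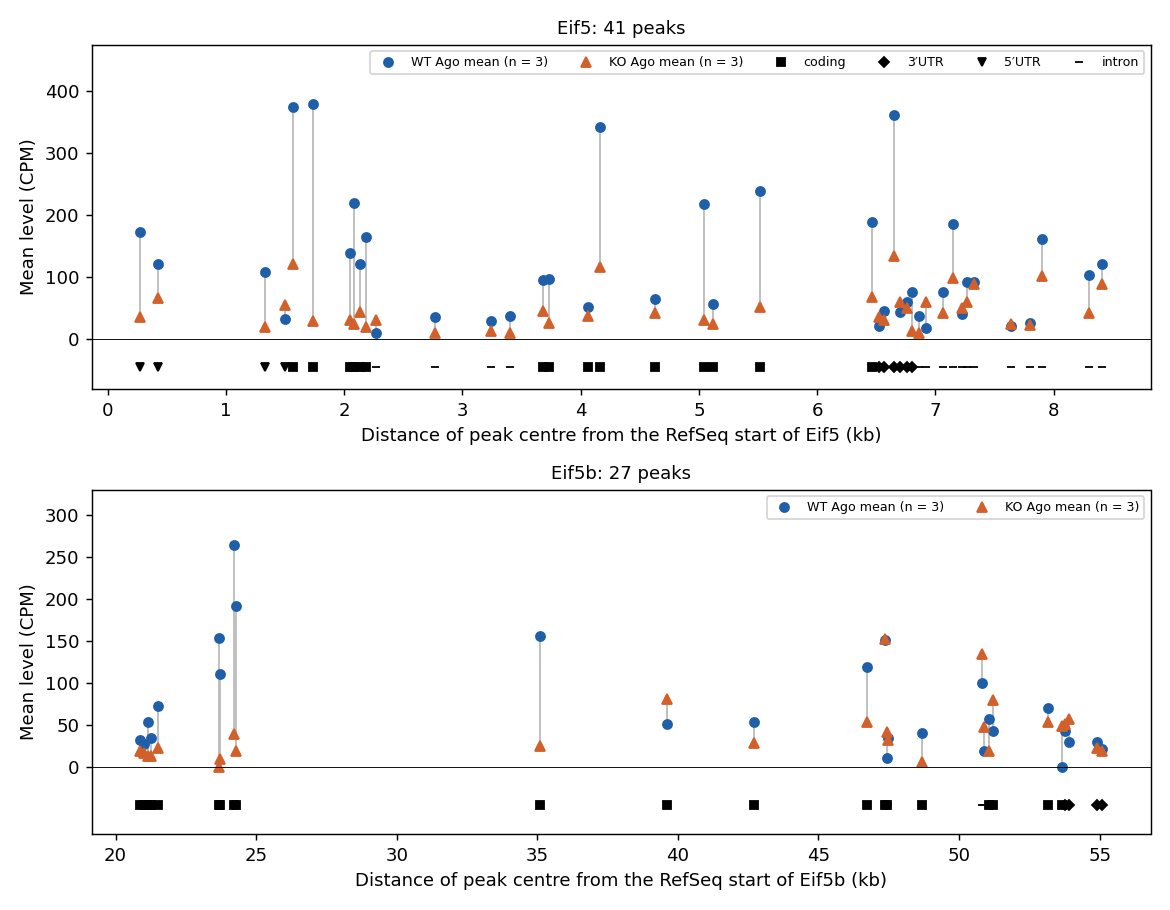
Mean level in WT (circles) and KO (triangles) Ago libraries, n = 3 each, of every Eif5 and Eif5b peak against its distance in kb from the RefSeq start of the gene, with the annotation class below 0. In Eif5 all 15 coding peaks are lower in KO, and in Eif5b the first 10 peaks are, while later peaks lie on both sides.

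Eif1b, a close relative of the scanning factor eIF1, had the largest change among the tested peaks, in its 3′UTR. The peak at chr9:120494977-120495032 held 19, 34 and 11 WT reads and 0, 5 and 2 KO reads. Its levels were 463, 543 and 362 CPM in WT and 0, 94.8 and 76.1 CPM in KO. All KO libraries were below all WT libraries, and the 6 IgG libraries held 0 reads. The peak reached the minimum count of the filter in its WT libraries alone, so that order was set by the filter and adds no support. Its call in the filtered tests is not independent of the filter either. Without the filter the log2 change was -2.94 (edgeR adjusted p = 0.000892). In the filtered test the log2 change was -2.87 ± 0.53 (SE, n = 3 each, edgeR adjusted p = 0.000792), and the call held in 11 of 11 alternatives. The peak carries none of the 6 microRNAs' seed codes.

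Across the gene, Eif1b peaks divided by region. All 3 of its 3′UTR peaks had a lower KO mean, with 105 WT and 19 KO reads together, a ratio of 4.64 (2.83 to 8.02). Without the called peak the other 2 held 41 WT and 12 KO reads, a ratio of 2.87 (1.48 to 6.00). Its 3 coding peaks held 18 WT and 19 KO reads, with a ratio of 0.80 (0.39 to 1.60), and its 5′UTR peak 9 and 11. On summed reads Eif1b had 203, 203 and 171 CPM in WT and 95.02, 78.4 and 144.3 CPM in KO. The groups did not overlap, and the log2 change was -0.96 ± 0.27 (SE, n = 3 each, edgeR adjusted p = 0.0530).

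The remaining factors of this group were thin. On summed reads Eif1ax, an X-linked eIF1A gene, had a log2 change of -0.39 ± 0.27 and Eif1 one of -0.23 ± 0.37 (SE, n = 3 each), and neither passed edgeR. With Eif5, Eif1b and Eif5b, all 5 tested genes of this role had a negative change, of which 1 was called. Eif1a held 37 WT and 28 KO reads and Eif1ad 27 and 24, too few to test.

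Around eIF2, which delivers the initiator tRNA, no gene sum passed the test. Of the subunits, Eif2s3x had a log2 change of 0.35 ± 0.23 and Eif2s2 of 0.06 ± 0.39 on summed reads (SE, n = 3 each). Eif2a, which can bind initiator tRNA outside the eIF2 complex, had 182, 138 and 221 CPM in WT and 300, 232 and 298 CPM in KO. All KO libraries were above all WT libraries, with a log2 change of 0.63 ± 0.24 (SE, n = 3 each, edgeR adjusted p = 0.146). None of the 3 tested genes of this role was called by edgeR.

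The tested Eif2a peak, in an intron at chr3:58553412-58553432, held 12, 10 and 12 WT reads and 18, 13 and 13 KO reads. Its levels overlapped between the groups, and its log2 change was 0.62 ± 0.44 (SE, n = 3 each, edgeR adjusted p = 0.429). This peak also held 36 reads in the shallow IgG libraries.

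Eif2b2, a subunit of the exchange factor that recharges eIF2 with GTP, has a coding 7-mer code of miR-451a at chr12:85223395-85223427. That peak held 9, 5 and 2 WT reads and 0 KO reads, 4.48-fold lower with 3 reads set over the KO group and counting error left out. It was among the 14 called lower by edgeR without the filter, with an adjusted p of 0.0146. All Eif2b2 peaks together held 48 WT and 16 KO reads.

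HRI, the heme-regulated eIF2 kinase encoded by Eif2ak1, differed between the genotypes by less than the spread of the libraries. Its 32 peaks summed to 623, 530 and 493 CPM in WT and 534, 616 and 558 CPM in KO. The ranges overlapped, and the log2 change was 0.06 ± 0.18 (SE, n = 3 each, edgeR adjusted p = 0.884). Its tested 3′UTR peak at chr5:143902660-143902690 had 243, 176 and 197 CPM in WT and 327, 284 and 342 CPM in KO. There all KO libraries were above all WT libraries, with a log2 change of 0.62 ± 0.36 that missed the threshold (SE, n = 3 each, edgeR adjusted p = 0.318). That peak reached the minimum count of the filter in its KO libraries alone, so the order was set by the filter. The coding peaks of Eif2ak1 held 197 WT and 107 KO reads and its 3′UTR peaks 165 and 180.

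The other eIF2 kinases were thin. Eif2ak2, the kinase PKR that responds to double-stranded RNA, held 38 WT and 37 KO reads and was not called by edgeR. Eif2ak3, the kinase PERK of the endoplasmic reticulum, held 30 and 22 reads, with 8 WT reads and 1 KO read at a coding 7-mer code of miR-451a. Eif2ak4, the amino acid sensor GCN2, held 8 and 11.

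eIF3, the scaffold that holds the initiation complex together, showed no called gene or peak in the filtered tests. Of its 12 tested genes, 6 had a negative and 6 a positive change, with a median log2 change of -0.03. Eif3a, the largest scaffold subunit, had 478, 645 and 528 CPM in WT and 702, 803 and 741 CPM in KO. The KO libraries were all above the WT libraries, with a log2 change of 0.44 ± 0.19 (SE, n = 3 each, edgeR adjusted p = 0.187). Eif3j1, a loosely bound subunit, had 109 WT and 52 KO reads and a log2 change of -0.73 ± 0.30 with overlapping groups (SE, n = 3 each, edgeR adjusted p = 0.180). Its copy Eif3j2 held nearly the same counts in each library, 109 WT and 59 KO reads in all, with a log2 change of -0.53 ± 0.29. These genes are thus not independent among the 6 negative changes, nor in the count over all tested genes.

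The tested Eif3c peak, coding at chr7:126547194-126547229, held 31, 27 and 13 WT reads and 23, 38 and 8 KO reads. Its log2 change was 0.14 ± 0.37 (SE, n = 3 each, edgeR adjusted p = 0.854), and the summed reads of Eif3c, a core subunit, had one of 0.01 ± 0.21. A coding peak of the subunit gene Eif3h held 10, 2 and 2 WT reads and 0 KO reads, and was called lower by edgeR only without the filter (adjusted p = 0.0300).

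In eIF4F, which reads the cap and unwinds the leader, 6 peaks were tested and none was called by edgeR. Eif4g2 encodes a scaffold related to eIF4G that lacks the eIF4E binding part. Its 3′UTR peak at chr7:111072206-111072260 had 657, 798 and 723 CPM in WT and 356, 493 and 571 CPM in KO. All KO libraries were below all WT libraries, with a log2 change of -0.63 ± 0.31 (SE, n = 3 each, edgeR adjusted p = 0.211).

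A neighbouring peak of the Eif4g2 3′UTR, at chr7:111072302-111072349, carries an 8-mer code of miR-144-3p and held 20, 31 and 12 WT reads and 13, 17 and 9 KO reads. Its levels did not overlap, and its log2 change was -0.41 ± 0.32 (SE, n = 3 each, edgeR adjusted p = 0.473). The 13 3′UTR peaks of the gene held 351 WT and 189 KO reads, a ratio of 1.56 (1.304 to 1.87), and 8 of them had a lower KO mean. The 30 coding peaks held 312 and 299 reads, a ratio of 0.88 (0.75 to 1.03). Over the whole gene the log2 change was 0.03 ± 0.17 (SE, n = 3 each, edgeR adjusted p = 0.933).

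Eif4a2, a helicase of eIF4F, was the only gene called higher, out of 43 tested on summed reads. It had 145, 186 and 179 CPM in WT and 351, 325 and 260 CPM in KO. All KO libraries were above all WT libraries, with a log2 change of 0.88 ± 0.22 (SE, n = 3 each, edgeR adjusted p = 0.0308). The call held in 3 of 11 alternatives and was lost without KO library 3, 12 or 13, without WT library 1 or 9, with DESeq2, with all 12 libraries and without the filter. Over these alternatives the adjusted p ranged from 0.0268 to 0.121. Of its 15 peaks, 2 had counts within 10% of an intergenic peak on another chromosome, with 28 WT and 59 KO reads, so these reads are uncertain. The other 13 held 88 WT and 103 KO reads.

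The remaining eIF4F genes showed no call by edgeR. Eif4a1, the main helicase, had a log2 change of 0.52 ± 0.27, Eif4g1, the main scaffold, 0.22 ± 0.17, and Eif4e, the cap-binding subunit, 0.26 ± 0.24 on summed reads (SE, n = 3 each). Eif4h had one of 0.18 ± 0.23, Eif4b of -0.05 ± 0.24 and Eif4g3 of -0.58 ± 0.32. Of the 8 tested genes of this role, 2 had a negative and 6 a positive change. The tested Eif4g1 peak with the most reads, in the 3′UTR class at chr16:20687150-20687199, held 18, 25 and 9 WT reads and 14, 29 and 9 KO reads, with overlapping levels. A 5′UTR peak of Eif4e at chr3:138547719-138547748 carries a 7-mer code of miR-144-3p. It held 8, 10 and 2 WT reads and 0, 1 and 0 KO reads, a ratio of 16.8 (2.69 to 696), and was called lower by edgeR only without the filter (adjusted p = 0.0222). In contrast, a coding peak of Eif4e at chr3:138553657-138553683 held 8, 14 and 4 WT reads and 18, 12 and 9 KO reads, with all KO levels above all WT levels and no call.

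Among the inhibitors of eIF4E, Eif4ebp2 had a log2 change of 0.23 ± 0.19 and the transporter Eif4enif1 one of 0.09 ± 0.29 on summed reads (SE, n = 3 each). Eif4ebp1 held 6 WT and 12 KO reads. Eif4a3, the helicase of the exon junction complex, had a log2 change of 0.30 ± 0.46 (SE, n = 3 each), and Eif6, which keeps the large subunit apart from the small, held 25 WT and 17 KO reads.

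Elongation factors had 2 peaks called lower out of 7 tested (28.6%, beside 17.6% of all tested peaks), too few to set the role apart. Eif5a, the factor that helps the ribosome past difficult peptide bonds, had a lower coding peak at chr11:69919218-69919241. It held 45, 28 and 24 WT reads and 11, 11 and 6 KO reads, or 1095, 447 and 789 CPM against 327, 209 and 228 CPM. All KO libraries were below all WT libraries, with a log2 change of -1.59 ± 0.41 (SE, n = 3 each, edgeR adjusted p = 0.00933). The call held in 12 of 12 alternatives, with adjusted p from 0.00154 to 0.0472. Its code is a mismatched miR-451a seed, and in the authors' deposited table its log2 fold change was -1.89. A neighbouring Eif5a peak had the same counts as a peak of Eif5al3-ps, so the division of reads between the gene and this copy is uncertain. On summed reads Eif5a had a log2 change of -0.58 ± 0.25 with overlapping groups (SE, n = 3 each, edgeR adjusted p = 0.194).

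Eef2, the translocase of the ribosome, had a lower coding peak at chr10:81181237-81181273. Its levels were 463, 527 and 625 CPM in WT and 267, 190 and 266 CPM in KO, without overlap. The log2 change was -1.18 ± 0.35 (SE, n = 3 each, edgeR adjusted p = 0.0258). The call held in 4 of 12 alternatives and was lost without WT library 9 or 10, without KO library 12 or 13, with DESeq2, with library size scaling, with all 12 libraries and without the filter, with adjusted p up to 0.214. A further Eef2 coding peak at chr10:81179740-81179761 had 949, 463 and 427 CPM in WT and 446, 227 and 228 CPM in KO. There KO library 3 lay within the WT range, and the log2 change was -1.04 ± 0.42 (SE, n = 3 each, edgeR adjusted p = 0.108). Without that library the peak was called by edgeR (adjusted p = 0.0380). Over all 40 Eef2 peaks the log2 change was -0.02 ± 0.20 (SE, n = 3 each).

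Eef1a1, which brings aminoacyl-tRNA to the ribosome, had 4 tested coding peaks and no call. The deepest, at chr9:78479135-78479162, held 30, 24 and 44 WT reads and 34, 35 and 44 KO reads. In CPM it was 730, 383 and 1446 in WT and 1010, 663 and 1674 in KO, so the spread within each genotype exceeded the difference (log2 change 0.41 ± 0.45, SE, n = 3 each, edgeR adjusted p = 0.628). The highest library of each genotype at this peak, WT 10 and KO 13, was also the one with the highest hepatocyte marker share, 1.81% and 2.24%. These were also the Ago libraries of their genotype with the fewest peak reads. In WT IgG, library 11 was highest in both shares. In KO IgG, library 4 had the highest share of this peak (0.0443%) and the lowest hepatocyte share (1.78%). Whether the peak and the hepatocyte share are linked was not tested. The other 3 Eef1a1 peaks had log2 changes of -0.46, -0.33 and -0.06. Eef1b2, Eef1d and Eef1g, parts of the exchange factor of eEF1A, and Eef2k, the kinase that inhibits eEF2, were not called by edgeR on summed reads.

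**Figure D3:**
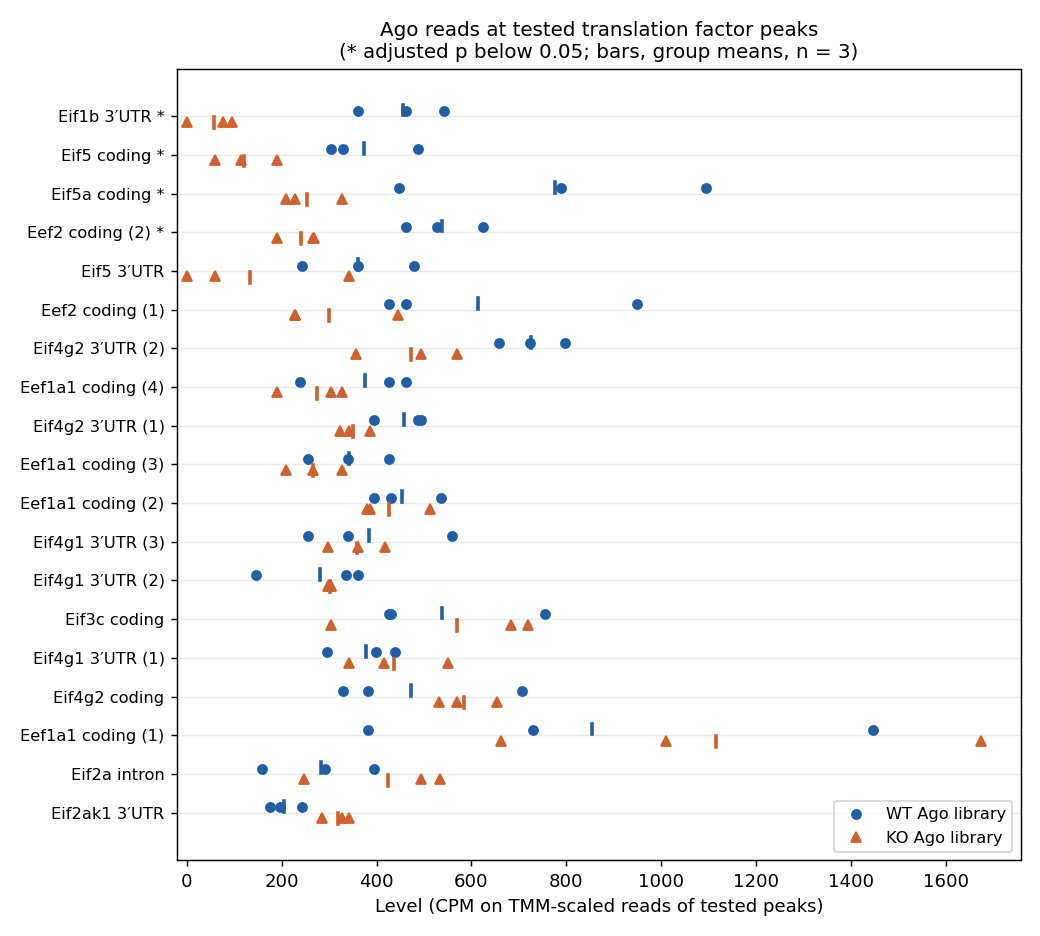
Level in CPM (x axis) of the 19 tested translation factor peaks in each WT (circles) and KO (triangles) Ago library, ordered by log2 change, with short bars for group means (n = 3). The 4 peaks with an asterisk passed the threshold and show no overlap between genotypes, for example Eif1b with WT from 362 to 543 and KO from 0 to 94.8. The called Eif1b and Eif5 peaks passed the filter through WT libraries alone, which set their order.

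Summed over all peaks of a gene, 43 of the 62 genes could be tested. By edgeR 1 was lower (2.33%, beside 5.29% of all 4441 tested genes) and 1 higher (2.33%, beside 0.653%). Of the 43, 18 had a negative and 25 a positive log2 change, with a median of 0.06, beside 0.03 for all tested genes. limma-voom called 2 lower, adding Eif1b, which also passed without WT library 10 (adjusted p = 0.0399, edgeR). The 19 untested genes were Eef1e1, Eif1a, Eif1ad, Eif2ak3, Eif2ak4, Eif2b1, Eif2b2, Eif2b3, Eif2b4, Eif2b5, Eif2s1, Eif2s3y, Eif3g, Eif3i, Eif3s6-ps1, Eif4e2, Eif4e3, Eif4ebp1 and Eif6. They held from 4 WT and 2 KO reads in Eif4e3 to 37 and 28 in Eif1a.

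**Figure D4:**
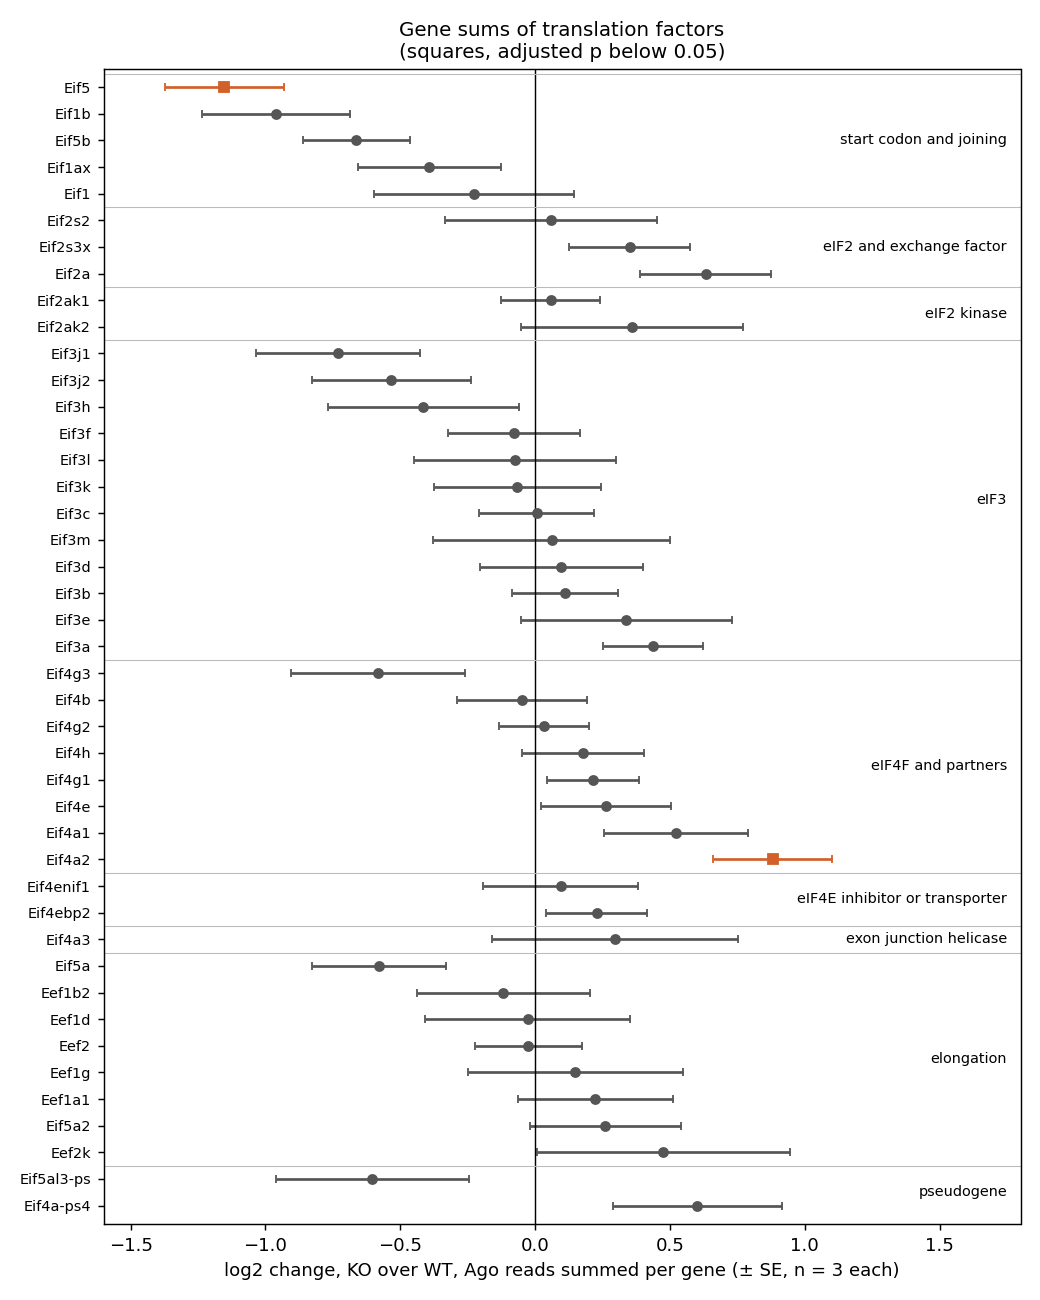
Log2 change, KO over WT, of Ago reads summed per gene (x axis, bars ± SE, n = 3 per genotype) for the 43 tested translation factor genes, grouped by role. Squares mark the called genes, Eif5 at -1.15 and Eif4a2 at 0.88, and the 5 genes of start codon selection and subunit joining are all below 0.

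Long seed matches to the deleted microRNAs were rare in this family, as they were over all peaks. A 7-mer or 8-mer code of miR-451a was held by 4 member peaks (0.513%, beside 0.511% of all peaks), and one of miR-144-3p by 8 (1.03%, beside 1.66%). The 4 miR-451a peaks, in Eif5b, Eif2b2, Eif2ak3 and an Eif3a intron, held 70 WT and 6 KO reads, and all 4 had a lower KO mean. None passed the filter, whereas over all genes 38 of the 40 tested peaks with such a code were lower. With 6-mers, in effect the Eif1a coding peak with 16 WT and 11 KO reads, the total was 86 and 17.

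The 8 miR-144-3p peaks with a 7-mer or 8-mer held 166 WT and 87 KO reads, and 6 had a lower KO mean. Counting 6-mers there were 15 peaks in 12 genes with 287 WT and 134 KO reads, 12 with a lower KO mean. The 2 that passed the filter, an 8-mer in the 3′UTR of Eif4g2 and a 6-mer in that of Eif5, were not called. Over all genes 41 of 75 tested peaks with a 7-mer or 8-mer of miR-144-3p were lower (54.7%), and 21 of 60 with a 6-mer (35%). For neither microRNA are the shares of all such peaks with a lower KO mean given here. Of the 4 called member peaks, 2 (Eif5a and Eef2) had a mismatched miR-451a seed and 2 (Eif1b and Eif5) had no code, and none had a 6-mer or longer code of either microRNA. In all, 5 tested member peaks had a mismatched miR-451a seed, of which those 2 were lower. Over all genes 140 of 334 such tested peaks were lower (41.9%), so the 2 do not set these factors apart.

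Some members share reads with copies. Counts within 10% of those of another gene's peak in all 12 libraries were found for 21 of the 225 member peaks with at least 20 Ago reads, in 14 genes, among them Eif4a1 with Eif4a-ps4, Eif5a with Eif5al3-ps and Eif3j1 with Eif3j2. None of the 19 tested peaks was among them. A pseudogene peak of Eif5al3-ps with 17, 11 and 6 WT reads and 1, 3 and 2 KO reads was called lower by edgeR without the filter (adjusted p = 0.0307).

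The IgG libraries were too shallow to judge most members. Whether an Ago and an IgG library came from a shared liver is not known, and the fits treat them as unpaired. In WT, 3 member peaks could be tested for Ago against IgG, and 2 were higher by edgeR, beside 35.9% of all 894 tested peaks. Those were the Eif4g2 3′UTR peak (log2 difference 2.39 ± 0.54, adjusted p = 0.00174) and the deepest Eef1a1 peak (1.16 ± 0.48, adjusted p = 0.0419) (SE, n = 3 each, edgeR). In KO, 2 could be tested and 2 were higher, beside 40.0% of 645, namely the same Eef1a1 peak (1.87 ± 0.48) and the Eif2a intron peak (1.14 ± 0.35). In WT the Eif2a intron peak differed by 0.16 ± 0.38 and was not called. These differences are relative to the peaks in each fit, which had to be deep enough to pass the filter. As a share of all peak reads the Eef1a1 peak was not higher in Ago. It took 0.00531% to 0.0217% in WT Ago libraries and 0.0212% to 0.0269% in WT IgG libraries. The KO ranges were 0.0103% to 0.0297% with Ago and 0.0203% to 0.0443% with IgG. The WT count was 1 of 1 tested without WT Ago library 1, 9 or 10. Without WT IgG library 2, 6 or 11 it was 12 of 20, 11 of 21 and 10 of 20. The KO count was 1 of 1 without KO Ago library 3, 12 or 13. Without KO IgG library 4, 8 or 14 it was 5 of 7, 2 of 8 and 2 of 9. The number of tested peaks thus moved with the count, and the shares over all peaks in these fits are not given here.

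No member peak was deep enough to compare KO with WT in the IgG libraries, where 0.00% of 190 tested peaks were called. The interaction of genotype and antibody could be tested for 5 member peaks, and edgeR called 0, with 0 at an unadjusted p under 0.05 and 0 by DESeq2. Over all genes it called 0.00% of 1364 peaks. None of the 4 peaks called lower in KO was among the 5. Without the filter all 780 were tested, with 0 called, 25 at an unadjusted p under 0.05 and 0.00% called over all genes. There the edgeR interaction was -0.97 ± 1.73 for Eif5a, 1.63 ± 1.67 for Eif5 and 0.30 ± 1.13 for Eef2 (log2, SE, n = 3 each), and it could not be estimated for Eif1b, with 0 IgG reads. In that fit each of these errors was larger than its interaction, and the 4 peaks held 0 to 5 IgG reads each. With 1 IgG library left out, 19 to 22 members passed the filter and 0 were called. Across those fits the Eif5a interaction ran from -4.73 ± 2.49 (without WT IgG library 6) to 1.94 ± 1.94 (without KO IgG library 4). That of Eef2 ran from -0.695 ± 2.38 (without WT IgG library 6) to 2.4 ± 1.87 (without KO IgG library 8), so both changed sign. Levels of the mRNAs themselves are not analysed here.

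In the authors' deposited table of differential peaks, 33 member peaks were listed, of which 6 were also tested here. At the authors' false discovery rate under 0.05, 9 were lower (27.3%, beside 35.7% of all listed peaks) and 0 higher. The 9 lay in Eif5b (3 peaks), Eef2 (2), Eif3j1, Eif5al3-ps, Eif5a and Eif5. Neither the called Eif1b peak nor the called Eif5 coding peak was listed in the authors' deposited table.

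Other genes of translation were taken from a list of 40 names. Of these, 35 had peaks and 10 peaks in 7 genes were tested, of which edgeR called 2 lower (beside 17.6% of all tested peaks), in Pabpc4, a poly(A)-binding protein, and Larp1, which binds mRNAs with a pyrimidine-rich start. None was higher. On summed reads 24 genes were tested and none was called by edgeR, beside 5.29% lower over all genes.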

How the data were processed

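The member peaks and role lists were chosen with earlier results of these data known. The submitters' processing notes name STAR, cutadapt, limma, bedtools and build mm10, without versions or roles. Counts deposited by the authors are unscaled numbers of reads sharing at least 16 bases with a peak. The seed codes are a deposited score of the best seed match. The authors' ratio of IgG to Ago peak height was not used to select peaks. Their log2 fold changes, p-values and false discovery rates are quoted as deposited, with the base 2 taken from the limma method. The 12 deposited coverage columns were not used.

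Counts were tested with edgeR 4.0.16 (R 4.3.3), TMM scaling and filterByExpr (minimum count 10, minimum total 15), over all peaks or over gene sums, with Benjamini-Hochberg adjustment. SEs were derived from the F statistic. Alternatives were DESeq2 1.42.0, limma-voom (limma 3.58.1), library size scaling, no filter, all 12 libraries, the authors' peaks only, peaks without coinciding counts, and each library left out. The scripts were tested on simulated data. Read ratios were adjusted for depth and given exact 95% intervals, with 3 reads standing in for 0. Named were all called peaks and genes and, for a gene with tested peaks but no call, the tested peak with the most reads. Other named peaks were chosen after their values were seen. Coordinates are mm10. All 62 symbols matched RefSeq. Library numbers differ between the groups and do not identify animals, so any pairing is unknown and the fits are unpaired.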

Additional observations from a re-analysis of the deposited data

How the results depend on the processing

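Member peaks lower in KO numbered 4 with edgeR, 2 with DESeq2, 2 with all 12 libraries in the fit, 2 over the peaks of the authors' table and 14 without a filter, and 3 to 7 with a library left out. Higher peaks numbered 0, 1 over the authors' peaks, and 0 to 1 with a library left out. Lower gene sums numbered 1, 2 with limma-voom, and 1 to 2 with a library left out. Higher gene sums numbered 1, and 0 with DESeq2, with all 12 libraries and without a filter, and 0 to 1 with a library left out. Peaks higher in Ago than IgG, relative to the peaks in each fit, numbered 2 of 3 tested in WT, 1 with library size scaling and 43 of 777 without a filter. With a library left out they numbered 1 to 12, out of 1 to 21 tested. In KO they numbered 2 of 2, 1 with DESeq2, 1 with library size scaling and 18 of 767 without a filter. With a library left out the KO count was 1 to 5, out of 1 to 9 tested. Of the values for single peaks and genes under the alternatives, 652 kept their side of the threshold, 20 lost the call and 4 gained one. Of the 652, 596 kept their sign and 56, all uncalled, changed it. The causes were not tested. Without a filter many more peaks enter the fit, most with few reads. No paired analysis was possible because no library number is shared between groups and which libraries share a liver is not known. Depth is a limit, since 761 of 780 peaks were too thin for the filtered test.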
